A study of Danio rerio with 6 samples.

Results

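The genes described here are those named for proteins of the cytosolic ribosome, measured in whole zebrafish embryos. They were chosen by name, as probe sets with 1 gene symbol that starts with rpl or rps and a digit. The genes rplp0, rplp2, rplp2b and rpsa were included too, and the rule left out rps27l and the rps6k kinases. This gave 72 genes, 27 of the small and 45 of the large subunit, measured by 76 of the 15617 probe sets on the array. Where a gene had several probe sets, the one with the highest mean over the 6 arrays stood for it. RNA was taken at 72 hours post fertilization from embryos raised at 28 °C, and each of 3 groups had 2 arrays that the labels call biological replicates. The first group had received, up to the 4 cell stage, 15 uM of ERbeta2 MO, a morpholino (an antisense oligomer) that blocks translation of ERbeta2, an estrogen receptor. The second had received a standard control morpholino (coMO) at 15 uM, and the third was uninjected. All groups came from eggs pooled over several aquaria, so that each array is a pool of embryos, and no genotype or strain is given in the labels.

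A ribosome consists of a small and a large subunit, each built from ribosomal RNA and a set of proteins. RNA polymerase I transcribes most of the ribosomal RNA in the nucleolus, where biogenesis factors process it and assemble it with the proteins. In mammals the mRNAs of ribosomal proteins share a 5′ sequence through which their translation is controlled together, and mutations in several of these genes cause Diamond-Blackfan anaemia.

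The values are MAS5 signals, a linear brightness per probe set with each array scaled to the same trimmed mean (500.1 on all arrays). The 72 genes were among the brightest on the array. Their mean signals ran from 1248 to 34137 with a median of 18202, and 70 of them exceeded 10000. Between 70 and 71 of the 72 genes lay among the 500 brightest probe sets on every array, and together they made up 10.2% to 11.5% of all signal. The dimmest members were rpl7l1 (1248), rpl22l1 (4707) and rps27.2 (10254), and the brightest were rps4x (28314), rplp0 (30444) and rps2 (34137). Brightness also depends on the probes, so these figures do not order the genes by mRNA amount.

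Several properties of the arrays differed between groups. The ratio of the 3′ to the 5′ control probe set of GAPDH, a measure of RNA integrity, was 1.32 and 1.24 without injection, 1.95 and 1.23 with coMO and 2.76 and 2.01 with ERbeta2 MO. That of acta1 was 3.54 and 4.26, 21.8 and 10.8, and 8.92 and 13.5 for these groups. That of the spiked dap transcript was 3.03 and 2.06, 2.7 and 2.59, and 2.91 and 3.19. Summed signals of the marker genes for other tissues differed too. The 2 retina markers on the array summed to 23560 and 25808 without injection, 19105 and 23380 with coMO and 676 and 4372 with ERbeta2 MO. The 3 exocrine pancreas markers summed to 19602 and 8075, 3285 and 5359, and 630 and 1263 for these groups, and the 2 red blood cell markers to 14114 and 19871, 32708 and 32047, and 32442 and 44318. No marker was at 0. In whole embryos, fewer cells of a type and less RNA per cell cannot be told apart, and the part of RNA integrity and tissue makeup in the results below was not tested.

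The total signal of the ribosomal protein genes overlapped between the 3 groups. It was 1290046 and 1310233 without injection, 1189581 and 1418422 with coMO and 1281511 and 1324347 with ERbeta2 MO. The coMO arrays held both the lowest and the highest of the 6 sums, so every other array lay between them. The second coMO array exceeded the first for 66 of the 72 genes, by a median of 0.26 on the scale of log2(signal + 32) on which all changes are given. The second array was the higher for 45 genes in ERbeta2 MO (median difference 0.04) and for 41 in uninjected embryos (0.02).

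**Figure D1:**
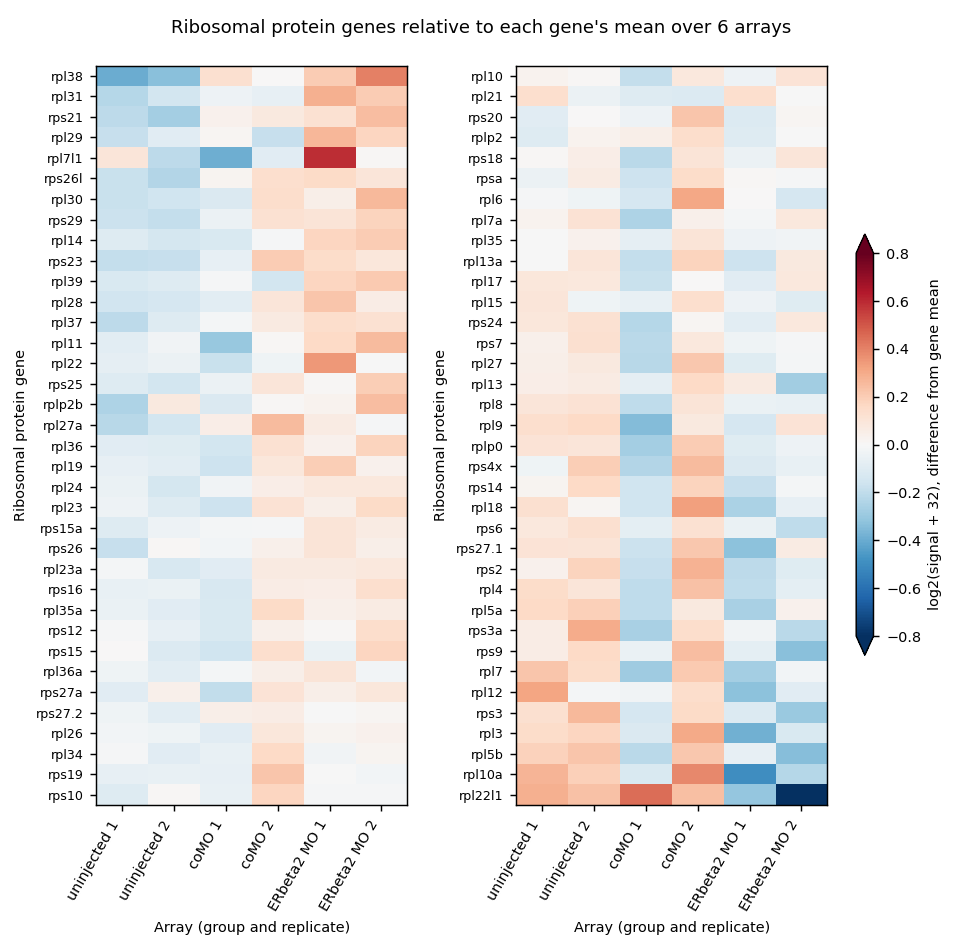
Difference of each of the 72 ribosomal protein genes from its own mean over the 6 arrays, in log2(signal + 32), with 1 column per array and genes ordered by their change between ERbeta2 MO and uninjected embryos. The first coMO array is below the second for 66 of the genes, and rpl38 at the top and rpl22l1 at the bottom show the widest contrast between the ERbeta2 MO and the uninjected arrays.

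ERbeta2 MO and coMO embryos were compared first, since both groups were injected. None of the 72 ribosomal protein genes passed limma's test at an adjusted p of 0.05, where 2.27% of the 11626 tested probe sets did (0.654% higher and 1.62% lower). At an unadjusted p under 0.05, 1 gene passed, rpl22l1, and 2361 of the 11626 tested probe sets (20.3%) did. The median change was 0.04 for the 72 genes (quartiles -0.11 and 0.12) against -0.00 for all tested probe sets (quartiles -0.31 and 0.26). It was 0.04 for the small and 0.04 for the large subunit. For 70 of the 72 genes the 95% interval of the change lay within 2-fold in either direction. On every array 70 of the 72 genes lay above the 98th percentile of signal, and the tested probe sets were not matched to them for brightness. The lowest and the highest change, -0.95 for rpl22l1 and 0.54 for rpl7l1, belonged to the dimmest members. Whether changes are understated at such high signals was not tested.

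The 2 groups did not overlap for 23 ribosomal protein genes (31.9%), 16 higher and 7 lower in ERbeta2 MO, against 48% of all tested probe sets (24.6% higher and 23.4% lower). Without the first coMO array the median change of the 72 genes was -0.08, and without the second it was 0.15, so its sign rested on which coMO array was used. No gene passed in either of these fits. When the first arrays of both injected groups were left out, 11 genes passed, 1 higher and 10 lower in ERbeta2 MO, against 18.7% of all tested probe sets, in a fit with 1 array for each injected group.

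Against uninjected embryos, ERbeta2 MO embryos had more rpl38 and less rpl22l1 signal. These 2 of 72 genes (2.78%) passed limma's test, against 18.4% of all tested probe sets (8.26% higher and 10.1% lower). For 69 genes the 95% interval lay within 2-fold. The median change was 0.03 (quartiles -0.16 and 0.20), with 0.04 for the small and 0.02 for the large subunit, and all tested probe sets had a median of 0.03 (quartiles -0.40 and 0.40). At an unadjusted p under 0.05, 5 genes passed, rpl38, rpl31 and rps21 with higher and rpl10a and rpl22l1 with lower signal, and 4155 of the 11626 tested probe sets (35.7%) did.

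Whether the 2 genes passed depended on single arrays and on the fit, while their direction was the same under every alternative run. In a fit with a term for the GAPDH ratio the change was 0.69 for rpl38 (limma adjusted p = 0.556) and -1.41 for rpl22l1 (limma adjusted p = 0.544), and no probe set on the array passed. Without the first uninjected array the change was 0.64 for rpl38 and -0.84 for rpl22l1, and without the second it was 0.70 and -0.89. These lay close to the 0.67 and -0.86 of the main fit. Neither gene passed there, and a much smaller share of all tested probe sets passed than in the main fit. Why the calls of the 2 genes were lost there was not tested. Without either coMO array rpl22l1 did not pass, with the same change, and the share of all tested probe sets was smaller too. Without the second ERbeta2 MO array the changes of rpl38 and rpl22l1 were 0.57 and -0.57, and that of rpl10a was -0.73. There rpl38 and rpl22l1 did not pass, although a larger share of all tested probe sets did than in the main fit.

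Of the 6 arrays, the first ERbeta2 MO array had the highest GAPDH ratio, the second coMO array the highest sum of the members and the first coMO array the lowest sum. When the first ERbeta2 MO and the second coMO array were both left out, a pair chosen after the data were seen, 18 of the 72 genes passed, 9 higher and 9 lower, against 38.1% of all tested probe sets. When the first arrays of both injected groups were left out instead, those with the higher GAPDH ratio in their group, 18 passed, 9 higher and 9 lower, against 38.2%. These fits compare 1 ERbeta2 MO array with 2 uninjected ones, have 1 residual degree of freedom and assume that a lone array varies like the others.

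**Figure D2:**
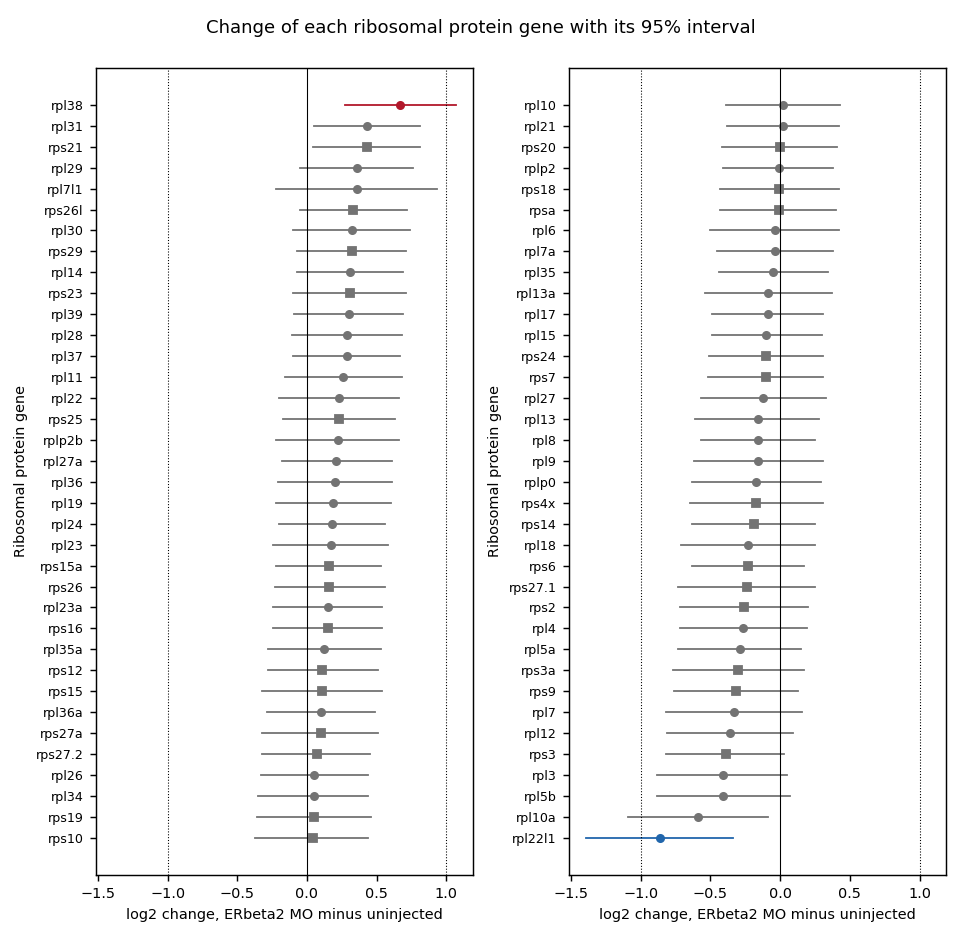
Change of each ribosomal protein gene between ERbeta2 MO and uninjected embryos (log2 scale) with its 95% interval from limma, circles for large and squares for small subunit genes. Dotted lines mark 2-fold, the red point is rpl38 (0.67), the blue point is rpl22l1 (-0.86), and the other 70 genes in grey did not pass the test.

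Arrays that did not overlap between these groups were common among the genes, as over all tested probe sets. The ERbeta2 MO and uninjected arrays did not overlap for 56 of the 72 genes (77.8%), 31 higher and 25 lower in ERbeta2 MO. This compares with 63.5% of all tested probe sets (33.6% higher and 30% lower). Over the 72 genes the uninjected arrays differed from each other by a median size of 0.06 and the ERbeta2 MO arrays by 0.13. The reason for the higher share among the 72 genes was not tested. The change was then computed from the first array of each group and again from the second, which share no array. Over the 72 genes the changes correlated with r = 0.73, and with r = 0.71 when the pairs were crossed, against 0.71 and 0.65 over all tested probe sets. The genes share arrays and scaling, so these correlations are descriptions. For ERbeta2 MO against coMO, r was 0.61 over the 72 genes and 0.37 with crossed pairs, against 0.39 and 0.48 over all tested probe sets. Without the dim rpl22l1 and rpl7l1 these member values were 0.52 and 0.31, and against uninjected embryos 0.72 and 0.78. Against coMO the sign was the same in both pairs for 43 of the 72 genes, and for 32 when crossed. Against uninjected embryos it was the same for 60 and 59.

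No ribosomal protein gene passed in the comparison of coMO with uninjected embryos, where 0% of all tested probe sets passed. At an unadjusted p under 0.05, 1 member passed, rpl38, and 1442 of all tested probe sets did. The median change of the 72 genes was 0.01 and ranged from -0.28 to 0.43, and the 95% interval lay within 2-fold for all 72. The groups did not overlap for 21 genes (29.2%), 16 higher and 5 lower in coMO, against 55% of all tested probe sets (28.9% higher and 26.1% lower). The 3 comparisons share arrays, so their values are not independent of each other. When the first ERbeta2 MO and the second coMO array were left out, 11 members passed, 10 of them lower in the remaining coMO array, against 18.6% of all tested probe sets, and without the first arrays of both injected groups 0 passed, against 1.08%.

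**Figure D3:**
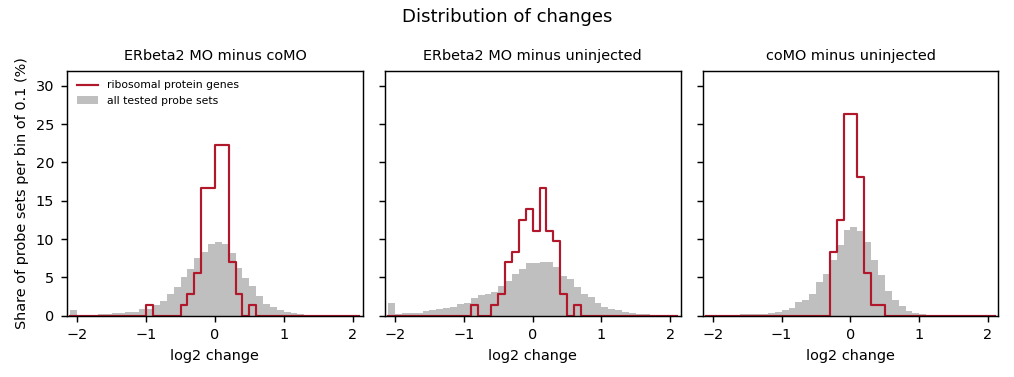
Share of probe sets per bin of 0.1 on the log2 scale in each comparison, for the 72 ribosomal protein genes (red line) and all 11626 tested probe sets (grey). The outermost grey bins also hold all changes beyond 2 in size, and the quartiles of the 72 genes lie inside those of all probe sets in each panel.

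The gene rpl22l1 encodes a paralog of the large subunit protein Rpl22, and in zebrafish both have been linked to blood stem cell formation. Its signal was 5471.2 and 5292.5 without injection, 6141.9 and 5316.2 with coMO and 3623.8 and 2396.4 with ERbeta2 MO. Both ERbeta2 MO arrays were below all 4 others. The change was -0.86 against uninjected embryos (SE 0.229, limma adjusted p = 0.0349) and -0.95 against coMO (SE 0.229, limma adjusted p = 0.0741), which did not pass with all 6 arrays. Against coMO it passed without the first ERbeta2 MO array (-1.24) and without the second (-0.65). In these fits a larger share of all tested probe sets passed than with all 6 arrays. It did not pass without the first coMO array (-0.84), without the second (-1.05) or without either uninjected array (-0.95). The gene was the only member in the authors' deposited tables of fold ratios, which from their values list changes of at least 2-fold. The authors' deposited table gives a ratio of 0.423 over uninjected embryos, and their table against coMO gives 0.401. Both are larger falls than the -0.86 and -0.95 of the main fit, which stay short of 2-fold. The reason for this difference was not tested. Thus 1.39% of the members stand in each of these authors' deposited tables, where 15.8% of all probe sets are listed over uninjected embryos and 6.75% over coMO. In the authors' deposited table of coMO over uninjected embryos no member stands, and 3.49% of all probe sets do.

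The paralog rpl22 did not pass in any comparison. Its signal was 11775.0 and 12019.3 without injection, 10936.8 and 12086.9 with coMO and 15761.5 and 12352.9 with ERbeta2 MO. The ERbeta2 MO arrays lay above the others, with changes of 0.28 against coMO and 0.23 against uninjected embryos.

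The gene rpl38 encodes a large subunit protein that in mice is needed for translation of a subset of Hox mRNAs and for patterning of the axial skeleton. Its signal was 14043.6 and 14662.2 without injection, 20249.3 and 18582.3 with coMO and 21287.6 and 24465.6 with ERbeta2 MO. Both injected groups lay above the uninjected one without overlap, and ERbeta2 MO lay above coMO. The change was 0.67 between ERbeta2 MO and uninjected embryos (SE 0.174, limma adjusted p = 0.033) and 0.43 between coMO and uninjected embryos (SE 0.174, limma adjusted p = 0.38). Between ERbeta2 MO and coMO it was 0.23 (limma adjusted p = 0.489). The probe set of rpl38 shares its array cluster name with one of gpx4b, so its identity is less certain. This holds for 31 of the 72 genes and not for rpl22l1.

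**Figure D4:**
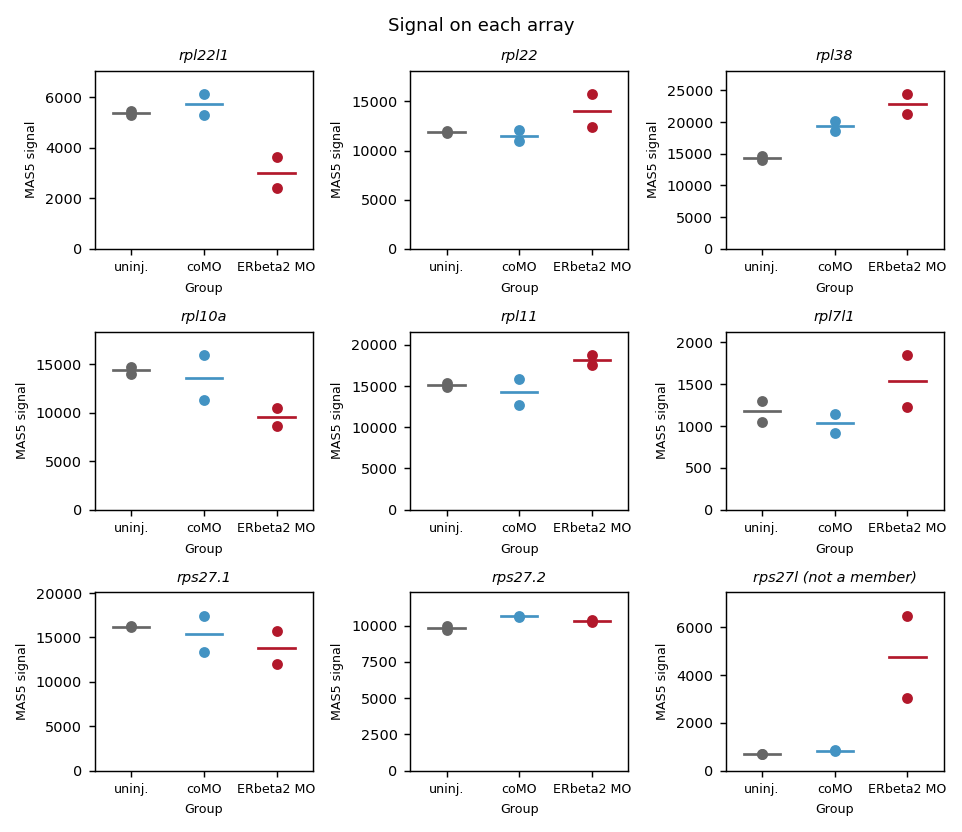
MAS5 signal on each array (points) and group mean (line) for 8 ribosomal protein genes and the look-alike rps27l, with every vertical axis starting at 0. The ERbeta2 MO points of rpl22l1 and rpl10a lie below all others, those of rpl38, rpl11, rpl22 and rps27l above all others.

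The gene rpl10a, which encodes another large subunit protein, had signals of 14741.8 and 13960.5 without injection, 11245.8 and 15955.1 with coMO and 8657.2 and 10454.9 with ERbeta2 MO. The ERbeta2 MO arrays were the lowest, and the change of -0.59 against uninjected embryos had a limma adjusted p of 0.09. With each array centred on the mean of the 72 members it was -0.60 and passed (limma adjusted p = 0.0419). With arrays left out the change ranged from -0.73 to -0.46, and rpl10a also passed in some fits with a lone ERbeta2 MO array. The genes rpl31 and rps21 had changes of 0.43 (limma adjusted p = 0.104) and 0.43 (limma adjusted p = 0.107) against uninjected embryos. These 3 genes were chosen after their values were seen.

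The proteins Rpl5 and Rpl11 form, with 5S ribosomal RNA, a particle that binds Mdm2 in mammals and so links ribosome assembly to p53. The signal of rpl11 was 14889.3 and 15423.1 without injection, 12749.1 and 15837.4 with coMO and 17578.4 and 18806.1 with ERbeta2 MO, and that of rpl5b was 17685.3 and 18193.5, 13377.3 and 18060.5, and 14864.8 and 12294.6. The ERbeta2 MO arrays lay above the uninjected ones for rpl11 (0.26) and below them for rpl5b (-0.41) and its duplicate rpl5a (-0.29). None of the 3 passed (limma adjusted p from 0.195 to 0.338).

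The orthologs of 3 human genes mutated in Diamond-Blackfan anaemia, rps19, rps24 and rpl35a, did not pass either. Against uninjected embryos their changes were 0.05, -0.10 and 0.12, and against coMO -0.09, 0.11 and 0.04. All 6 of these 95% intervals lay within 2-fold.

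Other members with known additional roles showed similarly small differences between ERbeta2 MO and uninjected embryos. The change was -0.23 for rps6, whose protein is phosphorylated downstream of growth signals, and -0.01 for rpsa, also known as a laminin receptor. It was 0.10 for rps27a, which encodes a fusion with ubiquitin. The stalk proteins rplp0 and rplp2, which recruit elongation factors, had -0.17 and -0.01. None passed.

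Among paralogs, rps27.1 had a change of -0.24 and rps27.2 of 0.07 against uninjected embryos. The pair rpl7 and rpl7l1 had -0.33 and 0.36, and rpl7l1, the dimmest member, had signals of 1302.6 and 1047.3 without injection, 920.9 and 1140.6 with coMO and 1852.8 and 1226.0 with ERbeta2 MO. The first ERbeta2 MO array of rpl7l1 stood above the other 5, and the gene passed against coMO only without the second ERbeta2 MO array (0.83, limma adjusted p = 0.0374). The genes rps4x and rps2 had -0.17 and -0.26 and did not pass.

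For 3 genes the array held several probe sets. The probe set chosen for rpl3, whose protein lies near the peptidyl transferase centre, read 28324.0 and 28751.8 without injection, 23568.8 and 31466.8 with coMO and 19564.7 and 23461.4 with ERbeta2 MO. The other read 18646.4 and 18412.2, 12844.6 and 18214.6, and 9930.7 and 8441.1. Both were lowest in ERbeta2 MO, but the chosen one had a change of -0.41 against uninjected embryos (limma adjusted p = 0.182) and the other of -1.01 (limma adjusted p = 0.0173). The cluster name of both also occurs with tpt1. The 3 probe sets of rps27.1 had changes of -0.24, 0.15 and 0.25, and the second probe set of rpl21 was too dim to be tested.

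The look-alike rps27l was left out by the rule and is known in mammals as a p53 target. Its signal was 672.6 and 688.7 without injection, 856.2 and 812.5 with coMO and 6489.8 and 3051.7 with ERbeta2 MO, and both ERbeta2 MO arrays were above all others. It rose by 2.37 against coMO (limma adjusted p = 0.018) and by 2.65 against uninjected embryos (limma adjusted p = 0.00391). Of the cytosolic ribosomal proteins with other names, faua and rack1 did not pass in any comparison. The dim faub, with 625.5 and 736.1 without injection, 409.3 and 442.9 with coMO and 399.7 and 256.0 with ERbeta2 MO, fell by 1.01 against uninjected embryos (limma adjusted p = 0.0257).

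The lists of ribosome biogenesis factors and of RNA polymerase I genes had higher medians than the members in both comparisons of ERbeta2 MO. Of 101 ribosome biogenesis factors listed, 80 were tested. Against uninjected embryos 15 rose and 0 fell, with a median change of 0.49 beside 0.03 for the 72 ribosomal protein genes and 0.03 for all tested probe sets, of which 8.26% rose. Against coMO, 3 rose and 0 fell (nop58, nob1 and wdr12), with a median of 0.64 and a background of 0.654% rising. Between coMO and uninjected embryos none passed and the median was -0.13.

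The protein of nob1 cuts the precursor of the small subunit RNA. The array held 2 probe sets for this gene, and the one with the higher mean was used. The same holds for nop58, polr1g, eif4a1a, eif4e1c, eif4g2a and mrpl28. Results of their other probe sets are not given here. The signal of nob1 was 694.8 and 619.2 without injection, 973.1 and 762.2 with coMO and 1817.1 and 1811.3 with ERbeta2 MO. That of noc4l, a nucleolar factor, was 171.9 and 175.2, 222.6 and 174.6, and 762.5 and 402.5. The ERbeta2 MO arrays were highest for both, with changes against uninjected embryos of 1.42 (limma adjusted p = 0.00555) and 1.52 (limma adjusted p = 0.014). Of the 11 tested genes of RNA polymerase I and its factors, 4 rose against uninjected embryos (polr1c, polr1g, taf1c and ubtf). The median of the list was 0.61. Against coMO 1 rose (taf1c), and the median was 0.60. Of all tested probe sets, 8.26% rose against uninjected embryos and 0.654% against coMO. The signal of taf1c was dim, with 45.8 and 49.2 without injection, 51.4 and 50.6 with coMO and 241.2 and 144.1 with ERbeta2 MO.

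These counts followed single arrays. The biogenesis median against uninjected embryos was 0.20 without the first ERbeta2 MO array and 0.78 without the second. It was 0.22 in the fit with a term for the GAPDH ratio, and no probe set on the array passed in that fit. Fewer factors were called without the first ERbeta2 MO array and more without the second. The share of all tested probe sets called rose in both cases. Fewer biogenesis factors passed without either uninjected array or either coMO array, and so did a smaller share of all tested probe sets. Against coMO the median was 0.30 without the first ERbeta2 MO array and 0.96 without the second. More factors were called without the second array than with all 6 arrays, and so was a larger share of all tested probe sets. None passed against coMO without either coMO or either uninjected array, with the replicate number as a block, with only the 4 arrays compared, without the filter or with the GAPDH term. The RNA polymerase I count against uninjected embryos was 2 with only the 4 arrays compared and 0 with the GAPDH term. It was higher without the second ERbeta2 MO array and lower without either coMO or either uninjected array, as over all tested probe sets. Against coMO 0 genes of that list passed without either coMO or either uninjected array, and 0 with the block.

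The list of translation factors was chosen by symbol and also held other genes, such as tpt1 and vim. It had a median of 0.08 against uninjected embryos. Of its 52 tested genes, 4 (eif4a1a, eif4e1c, eif4enif1 and eif4g2a) rose, beside 8.26% of all tested probe sets. The gene vim fell, as did 10.1% of all tested probe sets. More were called without the second ERbeta2 MO array and fewer without either uninjected array, as over all tested probe sets. Of the 4 genes, eif4a1a also rose against coMO, where the median was 0.11 and 0.654% of all tested probe sets rose. The 59 mitochondrial ribosomal protein genes had medians of 0.18 and 0.19. Of these genes 1 fell, mrpl28 against uninjected embryos (-0.98, limma adjusted p = 0.0332), where 10.1% of all tested probe sets fell. Without the first ERbeta2 MO array these medians were -0.01 and 0.00, and without the second they were 0.36 and 0.37.

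**Figure D5:**
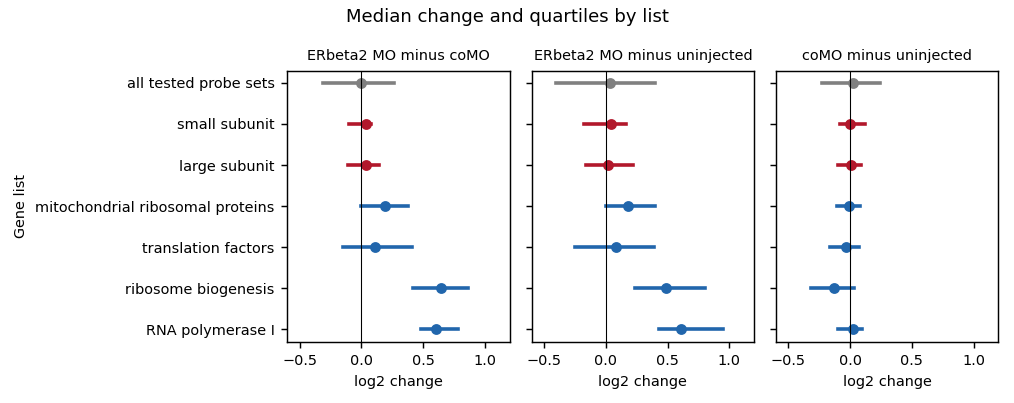
Median change (point) and quartiles (bar) on the log2 scale for the small and large subunit genes (red), 4 other lists (blue) and all tested probe sets (grey) in the 3 comparisons. In both comparisons of ERbeta2 MO the ribosome biogenesis and RNA polymerase I lists have medians between 0.49 and 0.64 and the subunit genes between 0.02 and 0.04.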

How the data were processed

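Affymetrix zebrafish arrays were hybridised with biotin-labelled total RNA, per the labels' protocols. The deposited values are MAS5 signals, an intensity for each probe set on each array, made by the authors with a MAS5 version that the submitters' processing notes do not state. Scaling, taken from the values, was to a common 2%-trimmed mean. Tables of fold ratios of 1 group over another were deposited too. Their way of combining replicates is unstated, and each direction was read from the match with the signals.

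Signals were transformed as log2(signal + 32), so changes of dim genes are understated. The 115 control probe sets and the 25% with the lowest mean were left out, and all 72 members passed. The plan named only the lowest mean. The mean of the log2 values was taken as the main setting after the counts of calls under both readings had been seen, because an earlier account of these data used it. With the mean of the signal itself the calls over all probe sets were 266, 2156 and 0 in place of 264, 2137 and 0, and the calls among the members were the same.

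Linear models were fitted with limma 3.58.1 in R 4.3.3 (lmFit, then eBayes with trend) to all 6 arrays in 1 model of 3 groups, with 3 residual and 5.31 prior degrees of freedom, two-sided tests, Benjamini-Hochberg adjustment over 11626 probe sets and a threshold of 0.05. The p-values reflect the variation among these embryo pools alone. With 2 arrays a group, exact permutation reaches no p under 0.333. The number of arrays limits the precision. On simulated data for ERbeta2 MO against coMO (11626 probe sets, 200 changed), 91% of changes of 2 and 23% of changes of 1 were recovered, with 10 false calls.

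The members and lists were chosen with earlier results of these data known. Named members were, besides those called, the 3 brightest and 3 dimmest, fixed genes with known roles and paralogs, and genes with discordant probe sets. Symbols came from the platform annotation and were updated by gene number, and rplp2b was included under its older symbol rplp2l. Replicate numbers were not shown to pair the arrays, since their deviations correlated with r = -0.0849, 0.111 and -0.0959 in the 3 comparisons. Genome positions are left out because no build is named for the array.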

Additional observations from a re-analysis of the deposited data

How the results depend on the processing

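The number of ribosomal protein genes called changed with several settings. Against uninjected embryos 2 were called. This fell to 1 with quantile normalization, with a constant prior, with only the 4 arrays compared and with the replicate block, and to 0 with the GAPDH ratio as a covariate. Of these, rpl22l1 was lost with quantile normalization and with only the 4 arrays compared, and rpl38 with the constant prior and with the replicate block (limma adjusted p = 0.0527). The replicate block changed no other call of a member. Of all tested probe sets, 18.4% were called in the main setting and 18.4% with quantile normalization. The share was 18.1% with the constant prior, 12.6% with only the 4 arrays, 16.3% with the block and 0% with the GAPDH covariate. With quantile normalization 14 members had an unadjusted limma p under 0.05, beside 5 in the main setting. Of the 11626 tested probe sets, 4206 had such a p with quantile normalization and 4155 in the main setting. Leaving out arrays gave from 0 to 18 calls against uninjected embryos, 0 to 11 against coMO and 0 to 11 between coMO and uninjected embryos, and the highest counts came without the first ERbeta2 MO array and 1 of the coMO arrays, alternatives added after the data were seen. The centring on the members' mean was also added then, as was the filter on the mean of the signal itself. The median change of the members moved to 0.18 against coMO and 0.27 against uninjected embryos with the GAPDH covariate. Leaving out arrays gave medians from -0.08 to 0.16 against coMO, from 0.03 to 0.05 against uninjected embryos and from -0.10 to 0.12 between coMO and uninjected embryos. The cause of these shifts was not tested.

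Of 72 changes of 24 named members, 40 changed sign under at least 1 of the alternatives (107 sign changes in all), none of them called in the main setting or past the threshold under the alternative. Of the 107, 29 came with the GAPDH covariate and 65 with arrays left out. The GAPDH ratio was 2.76 and 2.01 with ERbeta2 MO and 1.32 and 1.24 without injection. The covariate and the group therefore cannot be fully told apart in that fit, which has 2 residual degrees of freedom. With the GAPDH covariate, the change against uninjected embryos became 0.01 for rpl10a, 0.12 for rpl3, 0.14 for rpl5a, 0.25 for rpl7, 0.28 for rplp0, 0.14 for rplp2, 0.23 for rps2, 0.21 for rps24, 0.34 for rps27.1, 0.32 for rps4x and 0.27 for rpsa. Against coMO it became 0.02 for rpl3, 0.24 for rpl5a, 0.30 for rpl7, 0.28 for rplp0, 0.07 for rps19, 0.14 for rps2, 0.25 for rps27.1 and 0.25 for rps4x. Between coMO and uninjected embryos it became 0.09 for rpl10a, 0.01 for rpl11, -0.08 for rpl22l1, 0.10 for rpl3, 0.00 for rplp0, 0.09 for rps2, 0.09 for rps27.1, 0.08 for rps27a, 0.08 for rps4x and 0.07 for rpsa. With quantile normalization it became 0.11 for rpl5a, 0.02 for rplp0, 0.09 for rps27.2 and 0.00 for rpsa against coMO. It became 0.04 for rplp2 and 0.02 for rpsa against uninjected embryos, and 0.02 for rps2, 0.04 for rps27a and 0.02 for rpsa between coMO and uninjected embryos. Both ways of median centring gave 0.01 for rplp2 and 0.01 for rpsa against uninjected embryos.

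With arrays left out, the change against coMO ranged from -0.10 to 0.18 for rpl35a, -0.20 to 0.23 for rpl5a, -0.55 to 0.02 for rpl5b, -0.36 to 0.27 for rpl7, -0.27 to 0.24 for rplp0, -0.24 to 0.05 for rps19 and -0.43 to 0.09 for rps2. It ranged from -0.01 to 0.31 for rps24, -0.35 to 0.24 for rps27.1, -0.04 to 0.28 for rps27a, -0.34 to 0.18 for rps4x and -0.16 to 0.17 for rpsa. Against uninjected embryos it ranged from -0.08 to 0.05 for rplp2 and -0.07 to 0.04 for rpsa. Between coMO and uninjected embryos it ranged from -0.35 to 0.15 for rpl10a, -0.25 to 0.06 for rpl11, -0.12 to 0.02 for rpl22, -0.02 to 0.19 for rpl22l1, -0.28 to 0.14 for rpl3, -0.05 to 0.23 for rpl35a and -0.42 to 0.01 for rpl5b. It ranged from -0.47 to 0.03 for rpl7, -0.38 to 0.10 for rplp0, -0.29 to 0.17 for rps2, -0.28 to 0.11 for rps27.1, -0.17 to 0.14 for rps27a, -0.32 to 0.17 for rps4x, -0.18 to 0.02 for rps6 and -0.18 to 0.14 for rpsa. Pseudocounts of 1 and 100, no filter, a filter on 50% of probe sets and a robust prior left both counts of member calls against uninjected embryos and coMO as they were. The deposited values hold no detection calls, so signal over background could not be judged for dim probe sets.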
